A study of Homo sapiens with 4 samples.

Results

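The replication-dependent histone genes were followed on the 4 Affymetrix arrays of a knockdown experiment in SK-BR-3 cells, a long-established HER2-amplified line from a human breast cancer. A probe set, the group of short probes that reports one transcript, was taken as a member where its annotation listed 1 gene symbol only and that gene bore a clustered histone name, either the older HIST1H to HIST4H forms or the current H1-1 to H1-6, H2AC, H2BC, H3C and H4C forms. This gave 52 probe sets for 46 genes, of 41097 single-symbol probe sets for 19775 genes. A mean signal of 15 or more over the 4 arrays was reached by 35 of them, for 31 genes.

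All groups carried the line's missense-mutant p53. One group had both p53 shRNA and siRNA against Pontin, one had siRNA against Pontin with the control shRNA vector, one had p53 shRNA in the arm titled sicon, and the control had the control shRNA vector in that same arm. Each group was 1 array, collected 24 h after siRNA transfection of puromycin-selected cells, so no group had a replicate, differences are judged here by their size, and the separate origin of the cultures is not stated. Each knockdown was read in 2 pairs that share no array: for Pontin siRNA, over control shRNA cells and over p53 shRNA cells, and for p53 shRNA, over control shRNA cells and over Pontin siRNA cells. The Pontin and p53 comparisons reuse the same 4 arrays. The p-values given at the end belong to an alternative fit.

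Replication-dependent histone genes encode the bulk H1 linker and H2A, H2B, H3 and H4 core histones that package newly made DNA, and they lie in gene clusters and are transcribed mainly in S phase. Their messenger RNAs mostly lack introns and mostly end in a conserved stem-loop in place of a poly(A) tail. Many of these genes also give some polyadenylated transcript. RUVBL1 encodes Pontin, an ATPase of the AAA+ class that is found in the INO80, SRCAP and TIP60 complexes, which remodel chromatin and exchange or modify H2A-type histones. The labels do not state how labelling was primed, so tailed and untailed histone transcripts were not told apart, and in a whole culture fewer cells in S phase and less RNA per cell cannot be told apart either.

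Of the 46 genes, 42 lay on chromosome 6, in one stretch of 26 genes and another of 16 genes. H2BC21, H2AC25 and H3-4 lay on chromosome 1, and H2BC12L, whose name fits the rule although it stands outside the clusters, on chromosome 21. H2AC5P and H4C10P are pseudogenes. Histone genes resemble one another closely, and 9 of the 35 probe sets were of the _x_at type, which Affymetrix marks as able to bind unrelated or near-identical transcripts, while 4 were of the _s_at type, which is shared by related transcripts. Values of those 13 probe sets may mix several histone genes. Just above the signal limit stood H2AC16, H2AC5P and H4C4, with mean signals of 16.3, 16.3 and 16.3, and just below it H3C1, H1-6 and H2BC15, with 14.7, 14.6 and 14.3.

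RUVBL1, the siRNA target, had a signal of 127.4 with Pontin siRNA against 477.7 in the control, and 65.8 with both knockdowns against 398.2 with p53 shRNA alone. The markers of the line, ERBB2, GRB7, KRT8, KRT18, KRT19 and EPCAM, had signals of 355.6 or more on every array, while those of fibroblasts, leukocytes and endothelium had 105.8 or less on every array, apart from COL1A1 at 152.9 to 175.9. The targeted p53 transcript is not reported here. Dim probe sets read somewhat higher on the array with both knockdowns, whose median over the whole table was 19.6, against 16.5 with Pontin siRNA, 16 with p53 shRNA and 15.9 in the control.

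With Pontin siRNA, histone probe sets read lower as a group, most by a small amount and H2AC6 by a large one. Signals of 100 or more gave the steadiest readings, and all 10 histone probe sets at that level were below 0 on the log2 scale in both pairs, with mean ratios between -0.09 and -1.51. Among all 12764 single-symbol probe sets at that level, 34.6% were below 0 in both pairs. The median of the pairs' mean log2 ratio was -0.23 for the 10 histone probe sets and 0.00 for all at that level. These 10 probe sets stand for 9 genes, and 6 of them are _x_at probe sets of H2B and H4 genes, so they are not separate readings.

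H2AC6, which encodes a core histone H2A, had a signal of 208.6 with Pontin siRNA against 541.5 in the control, and of 145.3 with both knockdowns against 453.0 with p53 shRNA. Both Pontin siRNA arrays lay far below both arrays without Pontin siRNA. This was 2.60-fold and 3.12-fold lower, log2 ratios of -1.38 and -1.64. It was the only histone probe set at least 1.5-fold lower in both pairs (log2 of 0.58), 1 of 35, where 1.35% of the 23421 single-symbol probe sets with a mean signal of 15 or more met that rule. None of the 35 was that far higher in both pairs (1.75% of all probe sets) or that far apart with opposite signs (1.37%). The H2AC6 value comes from 1 probe set of the _s_at type. H2AC6 also read lower with p53 shRNA, at -0.26 and -0.52, and with both knockdowns it read 3.73-fold below the control.

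H1-2, which encodes a somatic linker histone, had a signal of 647.9 with Pontin siRNA against 859.6 in the control, and of 600.9 with both knockdowns against 864.9 with p53 shRNA. The Pontin siRNA arrays were again both below the others, by log2 ratios of -0.41 and -0.53, while the p53 shRNA ratios were 0.01 and -0.11. Its probe set is not of a cross-hybridizing type. H1-3, another linker histone gene, followed at a lower signal, with 60.6 against 74.3 in control cells and 64.3 against 75.1 in p53 shRNA cells, ratios of -0.29 and -0.22.

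Among H2B genes, H2BC12 had the plain _at type and a signal of 2651.1 with Pontin siRNA against 3289.5 in the control, and of 2814.9 with both knockdowns against 3198.1 with p53 shRNA, log2 ratios of -0.31 and -0.18. H2BC6, of the _x_at type, was at 430.1 against 496.0 and at 388.3 against 478.2, ratios of -0.21 and -0.30. H2BC5 gave -0.26 and -0.16 on its brighter probe set and -0.17 and -0.01 on the other, both _x_at. H2BC9 was at -0.24 and -0.08 and H2BC12L at -0.10 and -0.14, both also _x_at. These brighter H2B readings thus lay below 0 in both pairs by much less than H2AC6. Of the 11 H2B probe sets that reached the signal limit, 8 were below 0 in both pairs. The others, all dimmer, were of mixed sign.

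H2AC25, an H2A gene of chromosome 1, had signals of 349.9 against 389.5 in control cells and of 352.1 against 431.8 in p53 shRNA cells, ratios of -0.15 and -0.29. Its second probe set, of the _x_at type with signals from 19.6 to 27.3, gave 0.42 and -0.31, so the gene rests on the brighter one. H4C11, an H4 gene read by an _x_at probe set, had 213.5 against 238.7 and 240.1 against 300.1, ratios of -0.16 and -0.32. It was the only one of the 10 brighter probe sets whose Pontin siRNA and other arrays overlapped. In the other 9 both Pontin siRNA arrays were below both arrays without Pontin siRNA, which held for 24.4% of all probe sets at that level.

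**Figure D1:**
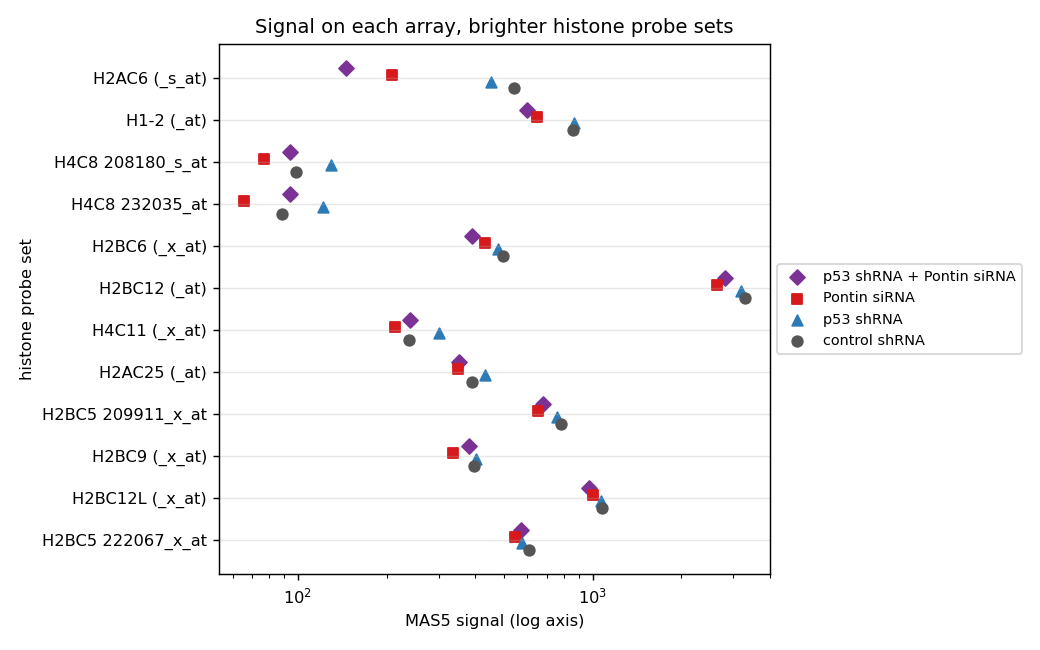
MAS5 signal (log axis) of the 10 histone probe sets with a mean signal of 100 or more and of both H4C8 probe sets, which lie just under that level, with 1 point per array and no error bars because each group is 1 array. In H2AC6 the arrays with Pontin siRNA, at 145.3 and 208.6, stand far left of those without Pontin siRNA, at 453.0 and 541.5, while the other genes show smaller gaps.

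H4C8, an H4 gene, was read by 2 probe sets that gave like values, lower with Pontin siRNA and higher with p53 shRNA. On the _s_at probe set its signal was 76.7 with Pontin siRNA against 98.5 in the control, and 94.3 with both knockdowns against 129.0 with p53 shRNA. On the _at probe set the signals were 65.8 against 88.1 and 94.0 against 122.0. Pontin siRNA ratios were therefore -0.36 and -0.45 on the first and -0.42 and -0.38 on the second, and p53 shRNA ratios were 0.39 and 0.30 on the first and 0.47 and 0.51 on the second. With both knockdowns the signal was close to the control, at -0.06 and 0.09. None of these reached 1.5-fold.

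The promoters of H2AC6, H1-2 and H4C8 are shown because these genes had the most negative Pontin siRNA ratios among the 12 histone probe sets of highest mean signal. Each is the 250 bases before the gene start in RefSeq on GRCh38.p14, at chr6:26123922-26124171 on the plus strand for H2AC6, chr6:26056471-26056720 on the minus strand for H1-2 and chr6:26285535-26285784 on the minus strand for H4C8. Capitals mark exact matches on either strand to 4 short motifs of histone promoters: the TATA box TATAAA, the CCAAT box CCAAT, the octamer ATTTGCAT and the H1 box AAACACA, none of which overlap another here.
H2AC6: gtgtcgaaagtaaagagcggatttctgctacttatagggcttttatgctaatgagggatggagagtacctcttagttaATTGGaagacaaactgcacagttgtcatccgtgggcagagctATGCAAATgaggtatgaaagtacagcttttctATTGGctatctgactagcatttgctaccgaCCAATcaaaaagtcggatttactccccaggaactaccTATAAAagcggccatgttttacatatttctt
H1-2: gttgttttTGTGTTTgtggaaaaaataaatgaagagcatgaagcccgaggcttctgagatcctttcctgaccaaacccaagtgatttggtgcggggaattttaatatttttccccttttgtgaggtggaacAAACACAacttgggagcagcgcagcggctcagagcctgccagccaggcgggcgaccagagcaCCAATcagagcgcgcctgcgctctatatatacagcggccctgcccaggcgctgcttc
H4C8: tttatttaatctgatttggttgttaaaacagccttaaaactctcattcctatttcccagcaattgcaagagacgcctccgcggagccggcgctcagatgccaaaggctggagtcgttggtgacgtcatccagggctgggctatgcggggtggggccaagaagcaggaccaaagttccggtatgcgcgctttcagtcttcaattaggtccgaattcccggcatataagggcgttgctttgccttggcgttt

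The H2AC6 window held a TATA box 31 to 26 bases before the start, 3 CCAAT boxes and 1 octamer in reverse. The H1-2 window held 1 CCAAT box and 2 H1 boxes, and in the H4C8 window none of the 4 letter strings was found. A promoter was listed for 41 of the 46 genes, in 44 windows. Of these windows 68.2% held a TATA box, 88.6% a CCAAT box, 38.6% an octamer and 13.6% an H1 box, against 10.7%, 32.0%, 1.63% and 4.82% of all 35116 windows of the same length. These matches describe the letters only.

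H2AC6 starts 246 bases from H2BC4, an H2B gene that runs the other way, so the window above spans the gap between them and reaches into the first bases of H2BC4. H2BC4 did not share the large reading on its single-symbol probe set, which was dim and of mixed sign. With signals of 22.6 against 29.9 and of 32.0 against 23.3, it gave Pontin siRNA ratios of -0.40 and 0.46. Of the probe sets that list H2BC4 among several H2B genes, the brightest gave -0.17 and -0.28. The next gave -0.36 and -0.27, and the dimmest -0.71 and -0.09. Other head-to-head neighbours with starts at most 1000 bases apart and both genes at 15 or more were H2AC14 with H2BC14, 245 bases apart, H2AC17 with H2BC17, 240 bases apart, and H3C7 with H2BC9, 979 bases apart. H3C7, at -0.09 and -0.55, and H2BC9, given above, were both below 0 in both Pontin siRNA pairs. In the H2AC14 and H2AC17 couples at least 1 gene was not. H2AC14 was at -0.31 and 0.06 and H2BC14 at -0.78 and 0.25. H2AC17 was at -0.04 and 0.43 and H2BC17 at -0.47 and -0.19.

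The 25 histone probe sets with mean signals from 15 to 100 repeated less well. With Pontin siRNA 9 of them were below 0 in both pairs, 2 above 0 in both and 14 of mixed sign. Of all 10657 single-symbol probe sets in that range, 2351 were below 0 in both pairs and 3641 above. The median mean ratio was -0.26 for the 25 and 0.07 for all in that range. H4C5 gave -1.17 and -0.15, H2BC3 -0.32 and -1.05, and H4C7, above 0 in both pairs, 0.27 and 1.18. The pseudogene H2AC5P gave 0.04 and -1.99, from a single low signal of 5.4 with both knockdowns against 18.9 to 21.4 elsewhere. The 2 H3C6 probe sets gave 0.47 and -0.73 on one and -0.78 and 0.26 on the other. Differences between the pairs in this range were as large as the ratios themselves. The median size of the departure from additivity, which is the gap between the 2 pairs, was 0.71 for these 25 and 0.13 for the 10 brighter ones. For all probe sets of the same signal ranges it was 0.40 and 0.13, so the dim histone readings differed more than most dim ones.

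**Figure D2:**
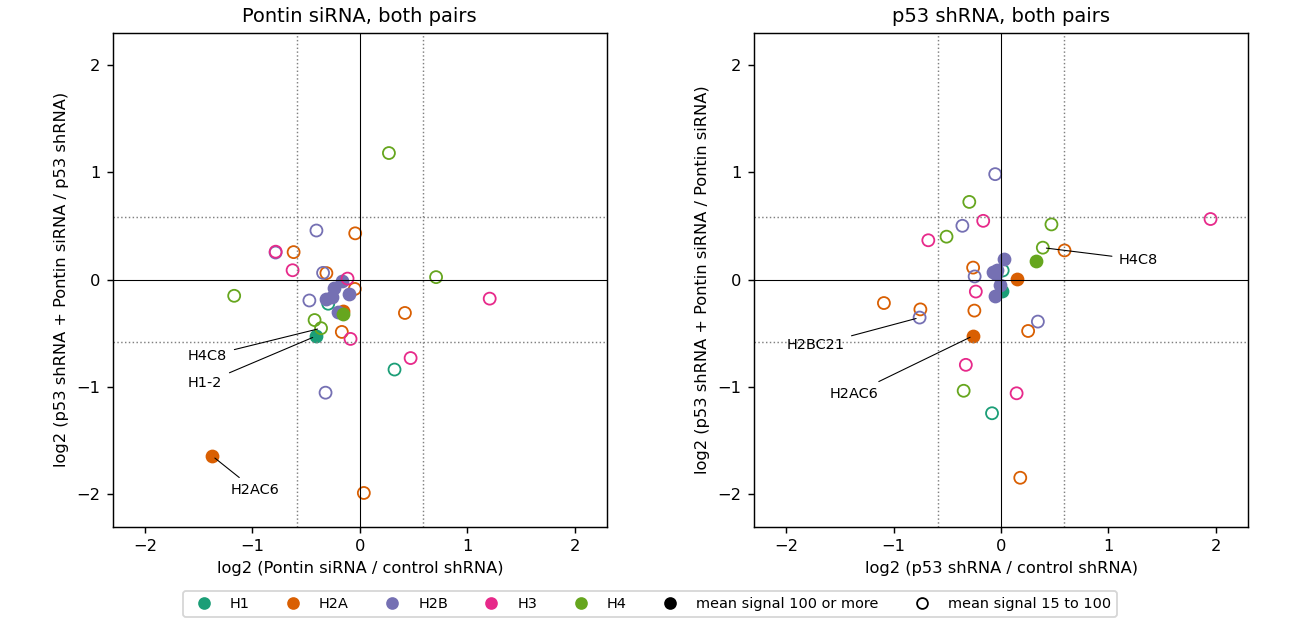
Log2 ratios of the 35 histone probe sets in both pairs of Pontin siRNA (left) and p53 shRNA (right), with filled points for mean signals of 100 or more, colours for histone families and dotted lines at 1.5-fold. With Pontin siRNA all 10 filled points lie below 0 on both axes and H2AC6 alone passes both lines. With p53 shRNA no point passes both lines on the same side.

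Over all 35 histone probe sets, 19 were below 0 in both Pontin siRNA pairs and 2 above, where 28.9% and 34.5% of all probe sets were. The median mean ratio was -0.24, against 0.03 over all probe sets, with pair medians of -0.24 over the control and -0.18 over p53 shRNA cells. In 14 of the 35 both Pontin siRNA arrays were below both others (19.6% of all probe sets), and in 1, H4C7, above (23.6%). No family had a median above 0, but the pairs agreed less in some. Of the 6 H3 probe sets 1 was below 0 in both pairs, and of the 6 H4 probe sets 4 were below and 2 above. The median mean ratio was -0.26 for 3 H1, -0.18 for 9 H2A, -0.21 for 11 H2B, -0.19 for 6 H3 and -0.32 for 6 H4 probe sets. By type it was -0.12 for 9 _x_at, -0.34 for 4 _s_at and -0.26 for 22 _at probe sets.

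Probe sets annotated to several histone genes at once fall outside the rule. They read clustered histone genes too, some of which, such as H2AC18, have no single-symbol probe set. There were 20 such probe sets, 16 with a mean signal of 15 or more, each listing 2 to 14 genes. With Pontin siRNA 8 of the 16 were below 0 in both pairs and 1 above (28.9% and 34.5% of all single-symbol probe sets). Their median mean ratio was -0.18. One that lists H2AC18 and H2AC19 had 1115.7 against 1368.1 in control cells and 1138.7 against 1326.0 in p53 shRNA cells. For the same genes another gave -0.22 and -0.17, and a dim one, with signals from 12.4 to 24.5, gave 0.34 and 0.26. The brightest, which lists 14 H4 genes, had 8357.0 against 8682.0 and 9323.0 against 9071.1, so its 2 pairs differed in sign. With p53 shRNA 3 of the 16 were below 0 in both pairs and 5 above (30.1% and 29.6% of all single-symbol probe sets). The dim H2AC18 and H2AC19 probe set, at 0.73 and 0.64, was the 1 called higher (1.54% of all single-symbol probe sets).

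**Figure D3:**
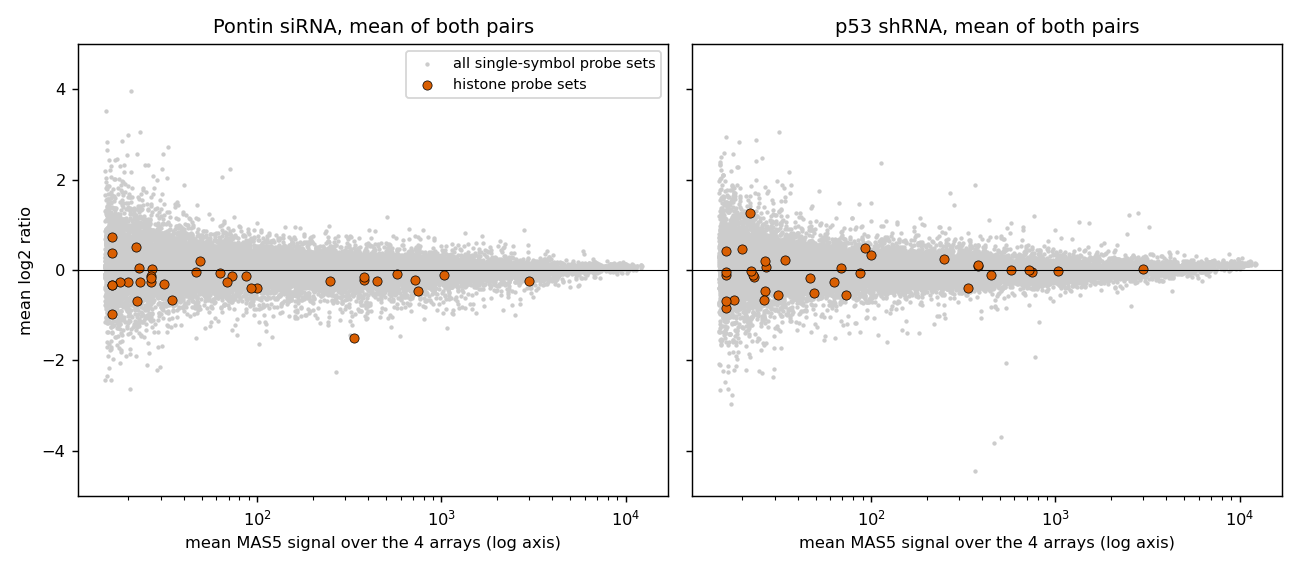
Mean log2 ratio of both pairs against mean MAS5 signal (log axis) for Pontin siRNA (left) and p53 shRNA (right), with all 23421 single-symbol probe sets in grey and the 35 histone probe sets in orange. Histone points above a signal of 100 lie below 0 with Pontin siRNA and on both sides of 0 with p53 shRNA.

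With p53 shRNA the histone genes did not share a direction. Of the 35 probe sets, 11 were below 0 in both pairs and 8 above (30.1% and 29.6% of all probe sets), and the median mean ratio was -0.05, against 0.00 over all. None was 1.5-fold lower or higher in both pairs, where 0.999% and 1.54% of all probe sets were, and none was that far apart with opposite signs (1.47%). Of the 10 brighter ones 3 were below 0 in both pairs and 3 above, with 35.4% and 29.3% of all probe sets at that level.

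H4 readings on 3 probe sets were above 0 in both p53 shRNA pairs, namely both H4C8 probe sets, given above, and H4C11, with 300.1 against 238.7 in control cells and 240.1 against 213.5 in Pontin siRNA cells, ratios of 0.33 and 0.17. The dim H4 genes went other ways, with H4C5 at -0.30 and 0.72, H4C7 at -0.51 and 0.40 and H4C4 at -0.35 and -1.03. Of the H2A genes, H2AC6 was below 0 in both pairs, as were H2AC8, with 58.6 against 69.6 and 55.2 against 67.4, and H2AC17, with 34.7 against 58.4 and 46.8 against 56.7. The H2AC17 ratios were -0.75 and -0.28, and those of the dimmer H2AC4 were -1.09 and -0.22. H2BC21, an H2B gene of chromosome 1, had 58.0 against 98.1 and 60.6 against 77.4 on its _s_at probe set, ratios of -0.76 and -0.35.

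H3C3 came nearest to the rule for a higher reading, with 32.1 against 8.3 and 28.4 against 19.2, ratios of 1.95 and 0.56. Its low control signal sets the first of these. Both p53 shRNA arrays were above the other arrays in 4 of the 35 probe sets, those of H3C3, H2AC16, H4C11 and the _at probe set of H4C8 (18.0% of all probe sets), and below them in 8 (17.4%).

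**Figure D4:**
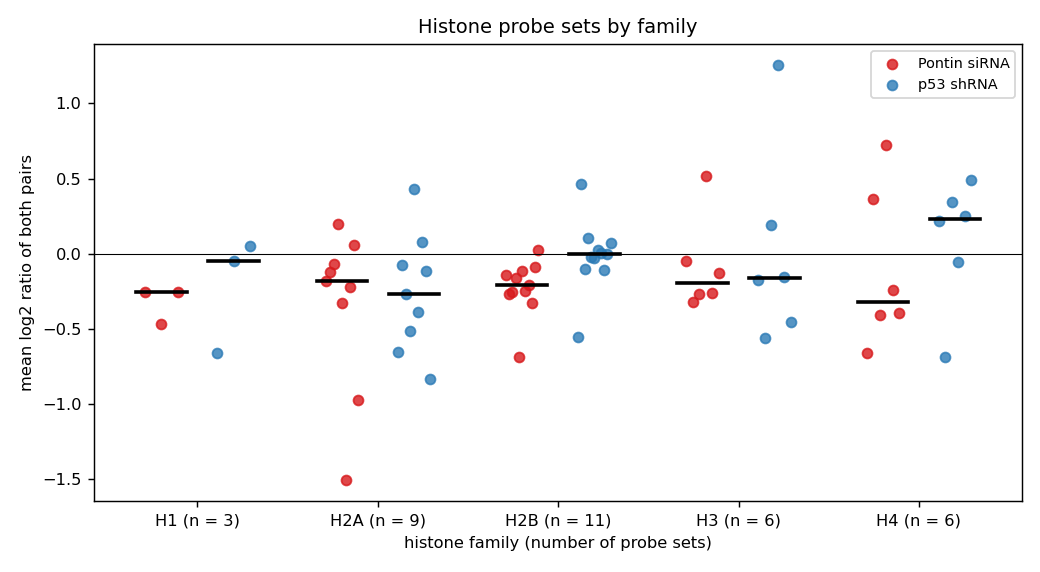
Mean log2 ratio of both pairs for each of the 35 histone probe sets, by family, with Pontin siRNA in red, p53 shRNA in blue and a black bar at each median. The Pontin siRNA medians of all 5 families are below 0, from -0.18 to -0.32, while the p53 shRNA medians lie on both sides, from -0.27 in H2A to 0.23 in H4.

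With both knockdowns against the control, 28 of the 35 histone probe sets read lower (46.5% of all probe sets), 8 by at least 1.5-fold (6.28%) and 2 higher by at least 1.5-fold (9.63%). H2AC6, at -1.90, was the only one of those 10 with a mean signal of 100 or more. H1-2 was at -0.52 and H2BC6 at -0.35. The departure from the sum of the single log2 ratios was under 1.5-fold for each of the 10 brighter probe sets, -0.26 for H2AC6 and between -0.16 and 0.16 for the others. Of all 35, 14 departed by at least 1.5-fold (17.7% of all probe sets), all of them dim.

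Genes that make or handle histones were read on the brightest probe set of each gene. Of 26 genes of histone gene transcription and transcript processing with a mean signal of 15 or more, 0 were called for either knockdown. A call needs 1.5-fold lower or higher in both pairs, and each kind was made for 0.999% to 1.75% of all probe sets. In lists this short, 0 calls lie near those shares. The median mean ratio was 0.01 with Pontin siRNA and -0.03 with p53 shRNA. With Pontin siRNA 8 of the 26 were below 0 in both pairs and 8 above (28.9% and 34.5% of all probe sets). SLBP, the protein that binds the histone stem-loop, had 1450.2 against 1405.7 and 1309.1 against 1338.0 with Pontin siRNA. NPAT, the coactivator of histone genes, was at 0.06 and 0.12, and CASP8AP2, which encodes the processing factor FLASH, at -0.03 and 0.04. None of these 3 shared the lower histone readings. Others of the 26 did move, from CCNE2 at -0.38 and -0.51 to NCBP1 at 0.42 and 0.30 with Pontin siRNA. With p53 shRNA CASP8AP2 was at -0.32 and -0.25.

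Of 20 histone chaperone genes 0 were called, with 4 below and 12 above 0 in both Pontin siRNA pairs and a median of 0.10. Over all probe sets, 28.9% were below 0 in both Pontin siRNA pairs and 34.5% above. At a mean signal of 100 or more these shares were 34.6% and 34.8%. Of 8 genes of replication-independent histone variants, whose transcripts mostly carry poly(A) tails, 0 were called, with 1 below and 5 above 0 in both pairs and a median of 0.14. Among them H2AJ was at 0.20 and 0.17 and H2AX, which yields both kinds of transcript, at -0.03 and 0.23. Of 11 genes of the complexes that deposit H2A.Z and hold Pontin, 5 were below 0 in both pairs and 3 above. Their median mean ratio was 0.01. Those at least 1.5-fold lower in both pairs were RUVBL1 itself, the siRNA target, and YEATS4, at -0.83 and -1.45. The RUVBL1 call was set by the siRNA itself. YEATS4 was the only other of the 11, where 1.35% of all probe sets met that rule.

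Because histone transcription follows S phase, 32 genes of G1/S and DNA replication were set beside the histones. With Pontin siRNA 12 of the 32 were below 0 in both pairs and 14 above (28.9% and 34.5% of all probe sets), with a median of 0.05 and 0 called. With p53 shRNA 25 were below 0 in both pairs and 3 above (30.1% and 29.6% of all probe sets), with a median of -0.17 and 0 called. A signal of 100 or more on at least 1 array was reached by 31 of the 32. At a mean signal of 100 or more, the shares of all probe sets were 34.6% and 34.8% with Pontin siRNA. With p53 shRNA they were 35.4% and 29.3%. On these arrays the G1/S genes read lower with p53 shRNA and the clustered histones with Pontin siRNA, and the difference between the lists was not tested. The share of cells in S phase was not measured, and its part in the histone readings was not tested.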

How the data were processed

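RNA abundance was measured on 1 Affymetrix array per group from 200 ng of total RNA. The deposited intensities are linear MAS5 signals, as named without a version in the submitters' processing notes. Each array's mean without its lowest and highest 2% was 150, so the authors had scaled them alike. The number of arrays limits the precision, and no detection calls were used. Gene names came from the platform annotation, updated through RefSeq gene identifiers (41043 of 41097 single-symbol probe sets matched). The 1801 probe sets with several symbols and 11777 with none were left out of the gene counts. Signals were taken to log2 with no pseudocount. The 14 signals of 0 were set to 0.1, none in a histone probe set. A call needed 1.5-fold in both pairs of a knockdown. Over all 23421 probe sets kept, calls with Pontin siRNA were 410 higher and 317 lower as deposited, 233 and 431 after quantile and 240 and 425 after cyclic loess. For p53 shRNA the same counts were 361 and 234, 260 and 311, and 262 and 311. Alternatives used limma 3.58.1. Members with a mean signal of 15 or more could be named, with array signals for called members, those of 100 or more and those with the largest same-sign ratios. Other histone genes given as examples were picked once values were known. The members and gene lists were chosen with earlier results of these data known. The calling rule and the limma fit were tested on simulated data. Promoter sequences are from RefSeq, GRCh38.p14.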

Additional observations from a re-analysis of the deposited data

How the results depend on the processing

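No paired analysis was possible because the labels give no replicate numbers and each group has 1 array, and leaving out an array was not run because it leaves 1 pair of each knockdown. The Pontin siRNA median of -0.24 became -0.16 with log2(signal + 16) and -0.18 without a filter on signal. It lay between -0.26 and -0.23 under the other settings run on it. The p53 shRNA median of -0.05 lay between -0.08 and 0.00 and was above 0 without a filter and at a mean signal of 100 or more. The 19 probe sets below 0 in both Pontin siRNA pairs became 10 of 10 at a mean signal of 100 or more. They became 11 of 22 without _x_at and _s_at types, where fewer probe sets remain. Of the same 35, the count rose to 25 after quantile normalization (71.4%, against 32.2% of all probe sets). After cyclic loess it was 22 (62.9%, against 31.9%). This count was run under alternatives chosen after seeing the data. Of the 10 brighter probe sets, 10 stayed below 0 with median centring and with log2(signal + 16), and 9 after quantile and cyclic loess normalization, the exception being one of the H2BC5 probe sets. The single lower call became 0 without _x_at and _s_at types, since H2AC6 has an _s_at probe set only, and 2 of 52 without a filter (3.85%, against 4.09% of all probe sets). Higher calls without a filter were 1 with Pontin siRNA and 4 with p53 shRNA of 52 (1.92% and 7.69%, against 7.30% and 6.67% of all probe sets), where there were 0 each as deposited. A limma additive fit over all probe sets, with 1 residual degree of freedom per probe set, called 3 lower with Pontin siRNA, H2AC6 (adjusted p = 1.47e-05), H1-2 (0.00452) and H2BC12 (0.0397), where 3.39% of all probe sets were called lower, and 0 with p53 shRNA, where the lowest adjusted p was 0.0908. An unadjusted p under 0.05 was found for 9 of the 35 with Pontin siRNA (25.7%, against 19.9% of all probe sets) and for 6 with p53 shRNA (17.1%, against 15.1%). That fit takes the 2 pairs as replicates, so it treats any interaction of the knockdowns as noise. Of the mean ratios of single histone probe sets, 70 under each of 4 scalings, 4 moved by more than the spread of the pairs after quantile, 4 after cyclic loess, 3 with log2(signal + 16) and 0 after median centring. That spread is each probe set's own, so dim probe sets with a wide spread could hardly move. After quantile normalization the Pontin siRNA ratio of H2BC4 went from 0.03 to -0.10 and was not counted. Nor was that of the dimmer H2AC25 probe set, from 0.06 to -0.12.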
